A study of Mus musculus with 50 samples.

Results

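The muscle and common forms of 2 proteins of the translation machinery were described in the mouse left ventricle. The 4 genes are Rpl3l and Rpl3, which encode the forms of ribosomal protein L3, and Eef1a2 and Eef1a1, which encode the forms of elongation factor eEF1A. They were taken by name from the 35717 genes of the expression table, and all 4 passed the filter on low values that left 11628 genes for testing. The members were chosen by measured values, namely the lower Rpl3l and higher Rpl3 of transgenic hearts. Differences between genotypes in these genes and in their ratios are therefore given as a description, without a test, and support nothing.

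The 50 hearts came from C57BL/6J mice aged 40 weeks, either LARP6 transgenic (Tg) or, as littermates, wild type (WT). LARP6 binds RNA, best known for collagen mRNAs. The title of the series calls the overexpression cardiomyocyte-specific, and the promoter that drives the transgene was not described in the labels. Each mouse received sterile saline or, at 1000 ng/kg/min, the pressor hormone angiotensin II (Ang II), and hearts were collected after 21 days. Under saline there were 11 WT libraries (5 female, 6 male) and 12 Tg (6 and 6), and under Ang II 14 WT (7 and 7) and 13 Tg (7 and 6). Each library was taken as 1 animal, because every library number occurs once. WT saline libraries serve as the comparison both for Ang II in WT hearts and for the transgene under saline, so these comparisons share samples. The choice of the members compared Tg with WT hearts. The tests of Ang II within a genotype therefore share libraries with the choice and are not independent of it.

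Ribosomal protein L3 lies in the large subunit close to the site where peptide bonds form. Each ribosome carries 1 L3 protein, and in heart and skeletal muscle RPL3L can take the place of the RPL3 that other tissues use. Rpl3l mRNA is known to fall when skeletal muscle grows under load. Elongation factor eEF1A binds GTP and brings each aminoacyl-tRNA to the ribosome. Eef1a1 is used in most cells, while adult muscle fibres and neurons use Eef1a2.

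The coding sequences show how far the 2 forms of each pair can be told apart by reads. Rpl3l lies on chromosome 17 (24727820 to 24736143, plus strand, assembly GRCm38) and Rpl3 on chromosome 15 (80077791 to 80091868, minus strand). Eef1a2 lies on chromosome 2 (181147653 to 181157014, minus strand) and Eef1a1 on chromosome 9 (78478449 to 78489151, minus strand). The coding sequence of Rpl3l has 1224 bases for 407 residues and that of Rpl3 has 1212 bases for 403. Over the 1212 aligned bases the 2 were 73.9% identical, and their longest shared run was 22 bases. Eef1a2 and Eef1a1 encode 463 and 462 residues, were 80.1% identical over 1389 aligned bases, and shared no run longer than 23 bases. Reads were 150 bases long, far longer than either shared run. The stretch of 60 coding bases with the most differences in each pair follows, 5′ to 3′, from the GENCODE M21 transcripts, with capitals at the bases that differ within the pair. It covers coding bases 163 to 222 of the L3 genes (25 differences) and 643 to 702 of the eEF1A genes (22 differences).
Rpl3l: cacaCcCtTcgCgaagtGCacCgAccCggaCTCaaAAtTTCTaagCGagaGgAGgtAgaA
Rpl3: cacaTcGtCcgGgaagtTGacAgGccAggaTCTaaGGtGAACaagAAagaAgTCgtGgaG
Eef1a2: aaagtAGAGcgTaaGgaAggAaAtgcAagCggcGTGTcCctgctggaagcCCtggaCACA
Eef1a1: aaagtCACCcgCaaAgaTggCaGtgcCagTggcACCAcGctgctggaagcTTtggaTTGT

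Processed pseudogenes, which are copies of an mRNA inserted elsewhere in the genome, resemble the common forms more closely. Among the genes of the table, 7 such copies shared a run of at least 150 bases with Rpl3 and 3 with Eef1a1, while none did with Rpl3l or Eef1a2. Reads of Rpl3 and of these copies may therefore be divided by the counting in an uncertain way. The 7 copies held 11.3% ± 2.35 (SD, n = 11) of the counts of Rpl3 and its copies together in WT saline hearts. With Ang II the share was 9.82% ± 2.55 (n = 14) in WT and 9.04% ± 2.47 (n = 13) in Tg hearts, and Tg hearts under saline lay between these and WT saline hearts. For Eef1a1 the share lay between 0.922% and 1.02% in the group means.

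The promoter of Rpl3l is shown because its level varied most of the 4. These are the 250 bases upstream of the RefSeq start, chr17:24727576-24727825 on the plus strand of GRCm38.p6, 5′ to 3′. Capitals mark the matches to 6 motifs searched on both strands. They were the E-box CANNTG, the core of GATA factor sites (GATA), the muscle element known as M-CAT (written CATTCC), the promoter box that reads TATAAA, the MEF2 site and the CArG box.
Rpl3l promoter: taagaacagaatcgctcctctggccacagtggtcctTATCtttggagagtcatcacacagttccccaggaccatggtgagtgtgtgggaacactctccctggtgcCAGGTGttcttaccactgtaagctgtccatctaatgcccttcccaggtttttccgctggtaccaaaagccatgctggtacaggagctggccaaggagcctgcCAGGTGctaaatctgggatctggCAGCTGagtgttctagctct
It held 3 CANNTG matches and 1 GATA match on the other strand, and no match overlapped another. Of 32851 mouse promoters of this length, 66.2% held CANNTG and 53.6% held GATA, so both are common. The promoters of Eef1a2 and Eef1a1 held no match to any of the 6. A match is a description of letters and not a site.

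Total counts per library ranged from 53877439 to 91579342. Rpl3l had 2385 to 12741 counts per library, Rpl3 5155 to 22633, Eef1a2 36927 to 73190 and Eef1a1 32236 to 88330. At the lowest Rpl3l count the coefficient of variation from counting is 2.05%, small beside the spread between hearts. Levels are given as scaled FPKM: the deposited FPKM corrects fragments for transcript length and depth, and was divided by a scaling factor of 0.776 to 1.14 per library. Since FPKM is per length, levels of different genes can be compared. Larp6, the gene of the transgene, ranged from 5.61 to 63.7 scaled FPKM in WT saline hearts and from 444 to 1631 in Tg saline hearts. Library 329, male replicate 5 of the WT Ang II group, had 1004 scaled FPKM of Larp6, within the Tg range, and the letters of its column in the table are those of Tg. Library 847, male replicate 6 of the Tg Ang II group, has WT letters in its column and 1119 scaled FPKM of Larp6. Both were kept under their labels, so 329 is the library labelled WT Ang II throughout. The main results for L3 and some of the others are also given without both.

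In WT hearts infused with saline the muscle form of L3 was the major one. Rpl3l ranged from 75.2 to 109 scaled FPKM with a median of 83.3 over the 11 WT saline hearts, and Rpl3 ranged from 28.6 to 41.4 with a median of 33.8. Rpl3l was above Rpl3 in 11 of 11 hearts and made up 71.7% ± 2.72 (SD, n = 11) of the summed level of the 2 forms.

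**Figure D1:**
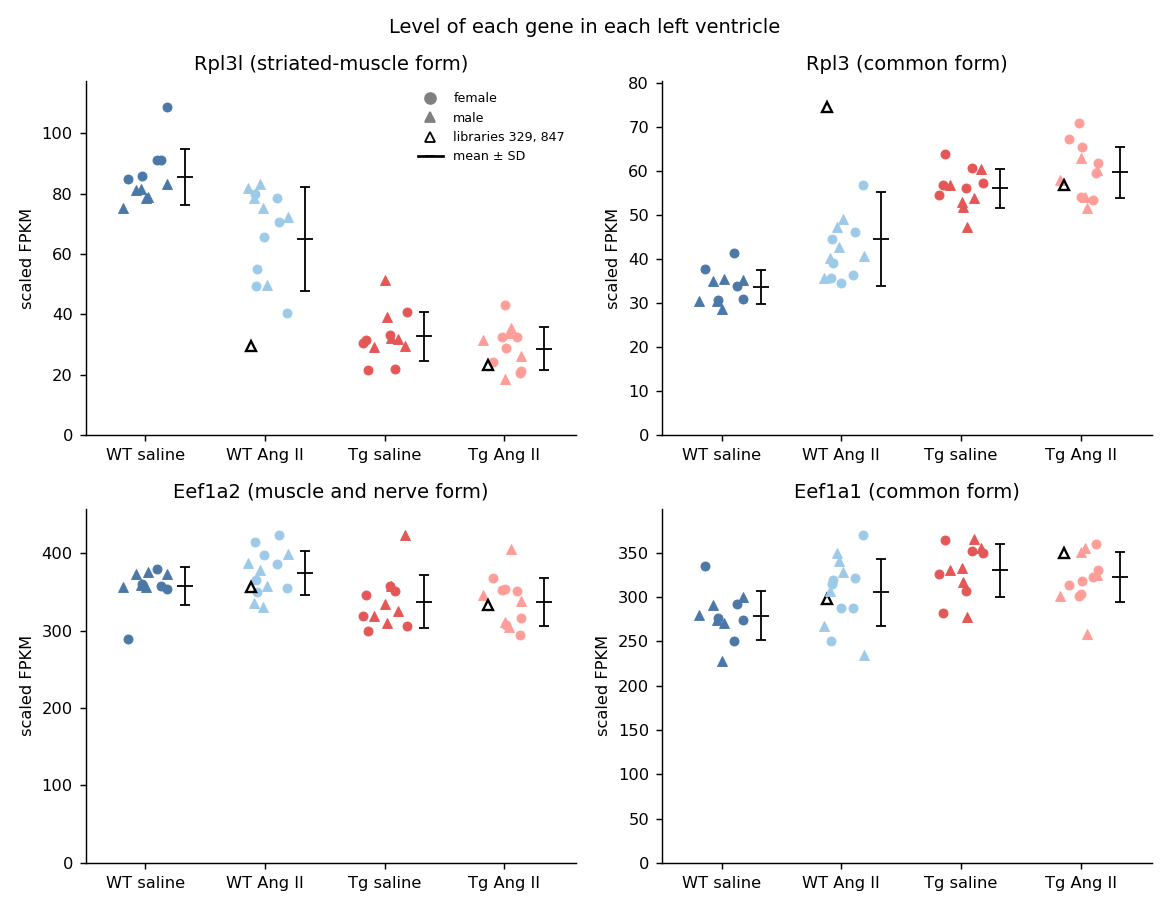
Scaled FPKM (y axis, from 0) of Rpl3l, Rpl3, Eef1a2 and Eef1a1 in each of the 50 libraries, by genotype and treatment group. Circles are females, triangles males, open triangles libraries 329 and 847, and bars the mean ± SD. Rpl3l stood between 75.2 and 109 in WT saline hearts and between 21.6 and 51.5 in Tg saline hearts, while the 2 eEF1A genes overlapped across the 4 groups.

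In Tg hearts Rpl3l was lower and Rpl3 higher, the difference for which the genes were chosen. Rpl3l ranged from 21.6 to 51.5 scaled FPKM (median 31.7) in the 12 Tg saline hearts and Rpl3 from 47.3 to 63.7 (median 56.5). All 12 lay below the lowest WT saline heart for Rpl3l and above the highest for Rpl3. The share of all genes that separate groups in this way is not given, here or below. Such counts of hearts are therefore only a description. The comparison of Tg with WT hearts under saline called 40.6% of all genes tested (20.4% higher, 20.2% lower), and nothing is read from the members' place in it. The edgeR log2 fold changes were -1.40 ± 0.14 (SE) for Rpl3l and 0.73 ± 0.08 for Rpl3. Under Ang II, Rpl3l ranged from 18.6 to 43.2 (median 28.9) in the 13 Tg hearts and Rpl3 from 51.7 to 70.9 (median 59.5). There the log2 fold changes from WT were -1.18 ± 0.13 and 0.42 ± 0.08, in a comparison that called 32.8% of genes (16.4% in each direction). The sum of the 2 L3 mRNAs was 119 ± 10.3 scaled FPKM (n = 11) in WT saline and 88.7 ± 6.77 (n = 12) in Tg saline hearts, lower in Tg although Rpl3 was higher.

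Ang II moved the 2 L3 genes of WT hearts in opposite directions. Rpl3l in the 14 WT Ang II hearts ranged from 29.6 to 83.1 scaled FPKM with a median of 71.4, and Rpl3 from 34.5 to 74.4 with a median of 41.7. For Rpl3l 9 of 14 hearts lay below every WT saline heart and the other 5 lay within their range. For Rpl3 7 of 14 lay above every WT saline heart. Rpl3l fell by 0.40 ± 0.13 on the log2 scale (edgeR adjusted p = 0.030) and Rpl3 rose by 0.40 ± 0.08 (edgeR adjusted p = 3.9e-04). Thus 2 of the 4 genes were called, in a comparison that called 18.6% of all genes tested (9.71% higher, 8.87% lower).

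The call of Rpl3l lay close to the threshold and that of Rpl3 did not, while both changes became somewhat smaller without the 2 doubted libraries. Library 329 held both the lowest Rpl3l and the highest Rpl3 of the WT Ang II group. Without libraries 329 and 847, Rpl3l ranged from 40.4 to 83.1 and its log2 change was -0.34 (edgeR adjusted p = 0.051), while Rpl3 ranged from 34.5 to 56.8 and its change was 0.32 (edgeR adjusted p = 6.7e-04). Leaving out any 1 of libraries 159, 165, 329, 332 or 779 also took the edgeR adjusted p of Rpl3l above the threshold of 0.05, to between 0.051 and 0.062. Of these 5, library 332 is a WT saline female and the others are WT Ang II hearts.

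Females and males of the WT group were compared by an analysis added after the data had been seen. In females, all 7 Ang II hearts (40.4 to 79.9 scaled FPKM) lay below the 5 saline hearts (84.9 to 109) for Rpl3l, with a log2 change of -0.56 ± 0.19 (edgeR adjusted p = 0.073). Without libraries 329 and 847 that p was 0.040. The Rpl3 change in females was 0.26 ± 0.12 (edgeR adjusted p = 0.18). In males, all 7 Ang II hearts (35.6 to 74.4) lay above the 6 saline hearts (28.6 to 35.5) for Rpl3, which rose by 0.53 ± 0.11 (edgeR adjusted p = 0.0025). Without the 2 libraries the rise was 0.39 (edgeR adjusted p = 0.017). Rpl3l in males changed by -0.25 ± 0.19 (edgeR adjusted p = 0.44), with 4 of 7 Ang II hearts below all saline hearts. These counts of hearts are again only a description. Over all genes 6.09% were called in females and 7.1% in males, where the count fell from 826 to 304 without libraries 329 and 847. The differences between the sexes in these changes were -0.31 ± 0.27 for Rpl3l (edgeR adjusted p = 0.89) and -0.27 ± 0.16 for Rpl3 (edgeR adjusted p = 0.84), and 0.0% of genes were called for a difference between the sexes.

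In Tg hearts 0 of the 4 members passed the test for Ang II by edgeR, DESeq2 or limma-trend, and 0 had an unadjusted p under 0.05, in a comparison that called 8.93% of genes (4.88% higher, 4.04% lower). The edgeR log2 changes were -0.19 for Rpl3l (95% interval -0.45 to 0.07, adjusted p = 0.43) and 0.09 for Rpl3 (-0.07 to 0.24, adjusted p = 0.55). Of the 13 Tg Ang II hearts, 10 lay within the range of the Tg saline hearts for each gene. The changes in Tg and WT hearts differed by 0.21 ± 0.19 for Rpl3l (edgeR adjusted p = 0.73) and by -0.31 ± 0.11 for Rpl3 (unadjusted p = 0.0081, edgeR adjusted p = 0.35). No member passed this test of the difference, which called 0.043% of genes. In the average over the 4 genotype and treatment groups, females and males differed by -0.02 for Rpl3l and 0.04 for Rpl3 (edgeR adjusted p = 0.93 and 0.76), where 4.42% of genes were called.

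The eEF1A genes were several times more abundant than the L3 genes and varied far less. Eef1a2 ranged from 289 to 380 scaled FPKM (median 358) in WT saline hearts and Eef1a1 from 228 to 335 (median 276). Eef1a2 was above Eef1a1 in 10 of 11 of these hearts and made up 56.2% ± 3.78 (SD, n = 11) of the sum. In Tg saline hearts Eef1a2 ranged from 300.0 to 424 (median 330.1) and Eef1a1 from 278 to 366 (median 332), so the 2 forms were at nearly the same level, and Eef1a2 was the higher in 5 of 12 hearts. The log2 fold changes from WT to Tg under saline were -0.08 ± 0.05 for Eef1a2 and 0.24 ± 0.06 for Eef1a1. With counts scaled by library size alone that of Eef1a2 was 0.05, so its direction depends on the scaling, while Eef1a1 was higher in Tg under both.

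Ang II called neither eEF1A gene by edgeR in either genotype. In WT Ang II hearts Eef1a2 ranged from 331 to 423 scaled FPKM (median 372) and Eef1a1 from 235 to 370.1 (median 311). The log2 changes from saline were 0.07 ± 0.05 (edgeR adjusted p = 0.36) and 0.13 ± 0.06 (edgeR adjusted p = 0.14). Under 2 other treatments of the data Eef1a2 did pass: with library size alone as the scaling its change was 0.13 (edgeR adjusted p = 0.023), and with limma-trend on FPKM 0.14 (adjusted p = 0.012). In Tg hearts, where Eef1a2 ranged from 295 to 406 (median 338) and Eef1a1 from 258 to 360.2 (median 323) under Ang II, the changes were 0.00 (95% interval -0.10 to 0.10, edgeR adjusted p = 1.0) and -0.03 (-0.15 to 0.09, edgeR adjusted p = 0.81). The differences between the genotypes in the Ang II change were -0.07 for Eef1a2 and -0.16 for Eef1a1 (edgeR adjusted p = 0.77 and 0.55). Sexes differed by -0.02 and 0.02 (edgeR adjusted p = 0.82 and 0.87).

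The ratio of muscle form to common form within a library needs no scaling between libraries. For L3 it was 2.57 ± 0.383 (n = 11) in WT hearts under saline and 1.57 ± 0.58 (n = 14) under Ang II. In Tg hearts it was 0.593 ± 0.174 (n = 12) and 0.489 ± 0.153 (n = 13). The muscle form was the more abundant in 12 of 14 WT Ang II hearts, in 0 of 12 Tg saline hearts and in 0 of 13 Tg Ang II hearts. The 2 exceptions among WT Ang II hearts were library 329 (ratio 0.397) and library 779, a female (ratio 0.711).

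**Figure D2:**
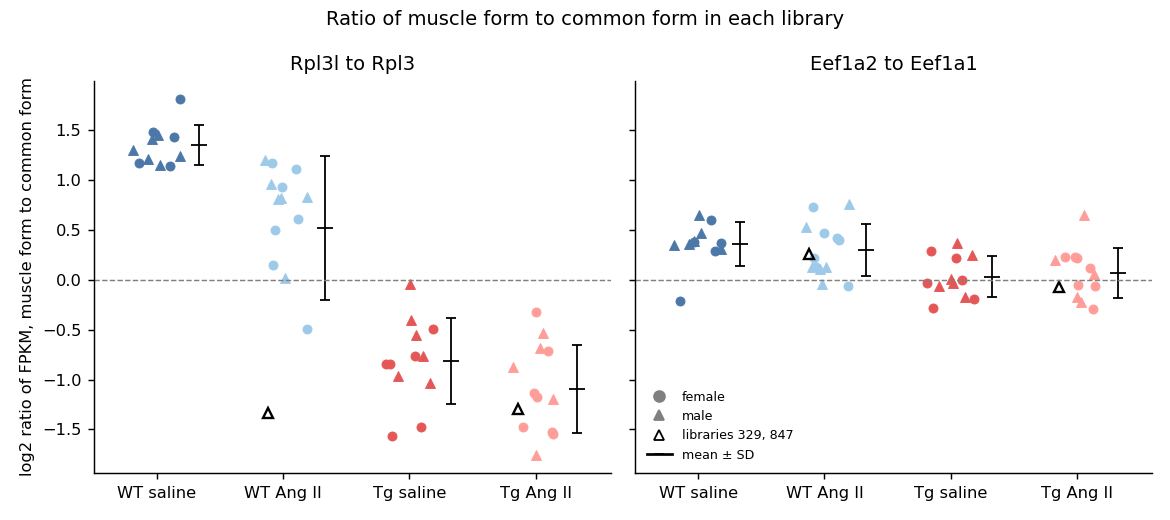
Log2 ratio of muscle form to common form (y axis) in each library for the L3 and the eEF1A genes, by group, with the mean ± SD. Above the dashed line at 0 the muscle form is the more abundant. Circles are females, triangles males and open triangles libraries 329 and 847. The L3 ratio was above 0 in 11 of 11 WT saline and below 0 in 12 of 12 Tg saline hearts. The eEF1A ratio averaged 0.36 and 0.30 in WT hearts under saline and Ang II, and 0.03 and 0.06 in Tg hearts.

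Ang II lowered the L3 ratio of WT hearts in both sexes. On the log2 scale it was 1.35 ± 0.20 (SD) in WT saline and 0.52 ± 0.72 in WT Ang II hearts, and 12 of 14 Ang II hearts lay below every saline heart. The difference, with the sexes weighted equally, was -0.83 (exact two-sided permutation within sex, p = 1.8e-04, Benjamini-Hochberg adjusted over 6 ratio tests 0.0011). Without libraries 329 and 847 it was -0.68 (exact permutation, adjusted p = 6.8e-04). Each sex alone, analysed after the data had been seen, gave -0.84 in females and -0.82 in males (exact permutation, adjusted p = 0.035 for both over 8 tests). Without library 329 the difference in males was -0.52 (exact permutation, adjusted p = 0.035). Adding the counts of the look-alike pseudogenes to Rpl3 gave -0.80 for both sexes (exact permutation, adjusted p = 0.0013).

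In Tg hearts the L3 ratio under Ang II was lower on average but did not pass the test. The group means were -0.81 ± 0.43 (n = 12) and -1.09 ± 0.44 (n = 13), with a difference of -0.28 (exact permutation, p = 0.12, adjusted 0.35). Whether the ratio responds differently in the 2 genotypes was tested only gene by gene, as given above for Rpl3l and Rpl3. Between genotypes the log2 ratio was lower in Tg by 2.16 under saline and by 1.61 under Ang II, or 1.74 without the 2 libraries. The eEF1A log2 ratio was 0.36 ± 0.22 in WT hearts under saline and 0.30 ± 0.26 under Ang II, and in Tg hearts 0.03 ± 0.21 and 0.06 ± 0.25. Its Ang II differences were -0.06 in WT and 0.03 in Tg (exact permutation, adjusted p = 0.73 for both), and its difference from WT to Tg under saline was -0.32. Neither ratio passed the test between the sexes (permutation, adjusted p = 0.73 for both).

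Within WT Ang II hearts the L3 ratio was lowest where Nppa was highest. Nppa encodes atrial natriuretic peptide, a marker of load on the ventricle. It ranged from 90.0 to 202 scaled FPKM in WT saline hearts and from 194 to 1471 in WT Ang II hearts, and rose by 2.05 ± 0.27 on the log2 scale (edgeR adjusted p = 5.2e-07). In Tg hearts its Ang II change was 0.51 ± 0.25 (edgeR adjusted p = 0.20), from levels already between 515 and 2068 under saline. Over the 14 WT Ang II hearts Pearson's r between the log2 ratio and log2 Nppa, both centred on the sex means, was -0.87 and Spearman's rho -0.85 (permutation, adjusted p = 0.0022 and 0.0051 over 16 relations). Without the 2 hearts with the ratios farthest from the median r was -0.65. Without library 329, r was -0.80 and rho -0.87 (permutation, adjusted p = 0.017 and 0.0032).

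**Figure D3:**
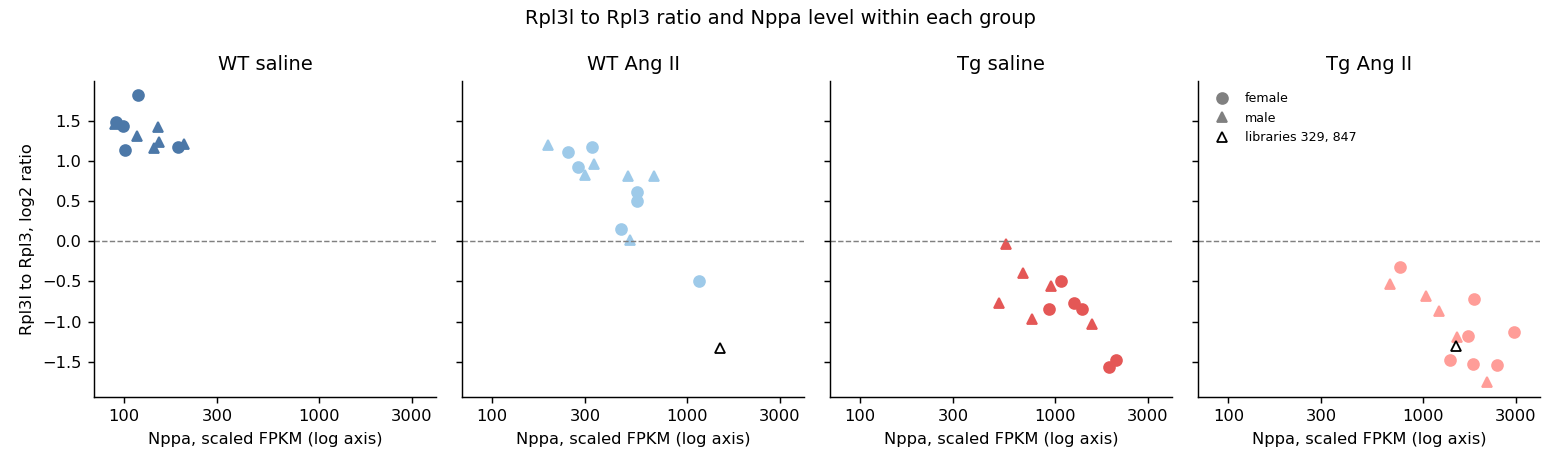
Log2 ratio of Rpl3l to Rpl3 (y axis) against Nppa in scaled FPKM (x axis, log scale) for each library, with 1 panel per group. Circles are females, triangles males and open triangles libraries 329 and 847. In the WT Ang II panel the ratio falls from 1.20 at an Nppa level of 194 to -1.33 at 1471.

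The other groups gave relations of the same sign. In Tg Ang II hearts (n = 13) r was -0.75 and rho -0.60 (permutation, adjusted p = 0.024 and 0.14), and r was -0.51 without the 2 farthest hearts. In Tg saline hearts (n = 12) r was -0.69 and rho -0.62 (permutation, adjusted p = 0.058 and 0.14), and r was -0.57 without the 2 farthest. In WT saline hearts (n = 11) r was -0.38 (permutation, adjusted p = 0.41) but -0.79 without the 2 farthest hearts, so its size depends on those. The members were also set against each other within groups. In WT Ang II hearts Rpl3l was lower where Rpl3 was higher, with r of -0.87 and rho of -0.68 (permutation, adjusted p = 0.0056 and 0.062). That r was -0.54 without the 2 farthest hearts and -0.72 without library 329 (permutation, adjusted p = 0.047), so its size rests largely on those hearts. In Tg Ang II hearts Eef1a2 and Eef1a1 ran against each other, with r of -0.87 and rho of -0.86 (permutation, adjusted p = 0.0022 and 0.0019) and r of -0.71 without the 2 farthest hearts. The sum of the 2 eEF1A genes there was 659 ± 15.2 scaled FPKM (n = 13). Its spread was smaller than that of either gene alone (30.7 for Eef1a2 and 28.3 for Eef1a1), which follows from such a negative r. For the same 2 genes r was -0.62 in WT Ang II, -0.54 in WT saline and -0.17 in Tg saline hearts (permutation, adjusted p = 0.064, 0.23 and 0.65). Without the 2 farthest hearts these were -0.65, 0.39 and -0.51. With FPKM as deposited r was 0.08 in WT Ang II and -0.82 in Tg Ang II hearts. The smallest adjusted p for a relation of Rpl3l with Eef1a2 in any group was 0.14 (permutation, rho in Tg Ang II hearts).

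Genes whose levels followed Rpl3l within the groups were sought among 4475 genes with a mean of at least 5 scaled FPKM, after subtraction of the 8 means of genotype, treatment and sex. The points are the same 50 libraries, which share depth and scaling, and no test was made. Closest to Rpl3l were Acaa2, the thiolase of mitochondrial fatty acid oxidation (r = 0.88), Rmnd1, which is needed for translation in mitochondria (0.87), Gpt, an alanine aminotransferase (0.86), Smco1 (0.85) and Gm43672 (0.84). Acaa2 was at 394 ± 31.3 scaled FPKM in WT hearts under saline and 292 ± 61.6 under Ang II, and in Tg hearts at 233 ± 41.9 and 195 ± 37.3, the same order of groups as Rpl3l. Rpl3 ranked 4419 of the 4475 genes by likeness to Rpl3l, with r = -0.66. Closest to Eef1a2 were Tmem38a, a cation channel of the sarcoplasmic reticulum (0.79), Tmem250-ps (0.77), St3gal3, a sialyltransferase (0.76), Fndc5, the precursor of irisin (0.74), and Zfand3 (0.74).

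Among the other ribosomal protein genes, 15 of 78 rose under Ang II in WT hearts and 0 fell. Of 46 other large-subunit protein genes 9 rose, and of 32 small-subunit genes 6 rose, where 9.71% of all genes tested were called higher. Without libraries 329 and 847 the counts were 6 and 2, where 7.82% of all genes were called higher, so the small-subunit count was then near the background. The list medians were 0.16 for both subunits against 0.00 for all genes. Rpl6 (0.15), Rpl4 (0.12), Rpl10 (0.17), Rpl7 (0.16), Rps12 (0.41) and Rps4x (0.17) were among those that rose. In WT males alone, where 3.84% of all genes were called higher, 10 large-subunit and 9 small-subunit genes rose. Without the 2 libraries 6 and 2 did, where 1.57% of all genes were called higher. With all libraries the list medians in males were 0.28 for both subunits, beside 0.04 and 0.05 in WT females.

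**Figure D4:**
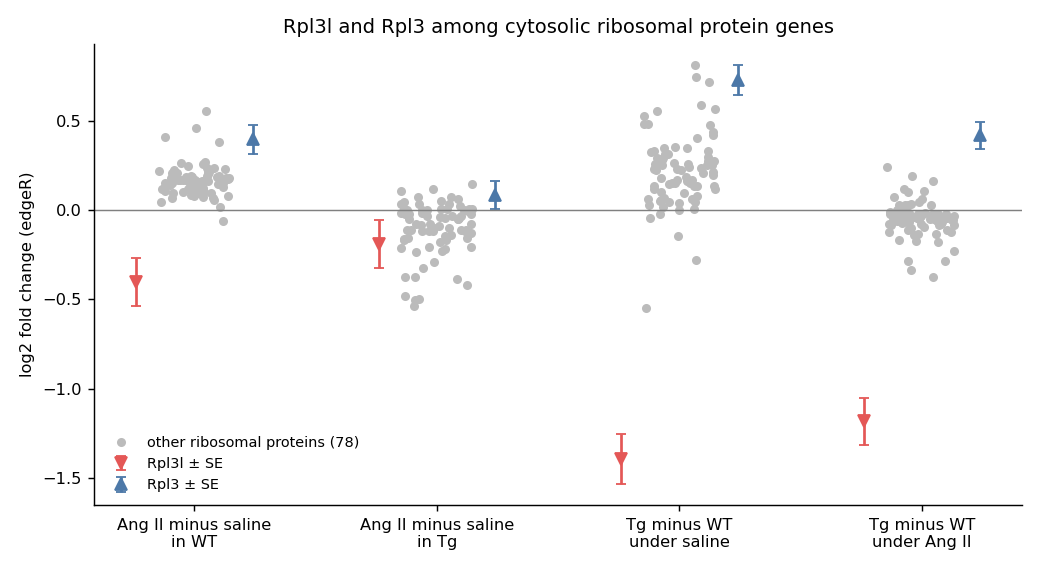
Log2 fold change from edgeR (y axis) of Rpl3l and Rpl3 (triangles with SE) and of 78 other cytosolic ribosomal protein genes (grey points, spread sideways only for legibility) in 4 comparisons. Rpl3 stood above 75 of the 78 in WT hearts under Ang II, and Rpl3l below all 78. In Tg hearts under Ang II, Rpl3l lay within the range of the others.

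Set among the 78, Rpl3 had a larger log2 change under Ang II in WT than 75, with Rpl17, Rpl41 and Rps12 above it, and Rpl3l a lower one than all 78, whose range was -0.06 to 0.56. In Tg hearts under Ang II the 78 ranged from -0.54 to 0.15, with a median of -0.08. By edgeR 0 of the 78 were called, with 6 large-subunit and 4 small-subunit genes at an unadjusted p under 0.05, and TMM scaling, DESeq2 and limma-trend called 0 as well. Rpl3l, at -0.19, lay above 16 of them. For the difference between the genotypes in the Ang II change 0 of 78 were called by edgeR, DESeq2 or limma-trend, with 16 large-subunit and 15 small-subunit genes at an unadjusted p under 0.05. Under saline 20 of 46 large-subunit and 13 of 32 small-subunit genes were higher in Tg than in WT hearts and 1 of each was lower (Rpl7a at -0.55 and Rps2 at -0.28), where 20.4% of all genes were called higher. Rpl3, at 0.73, lay above 76 of the 78, but it was chosen for this difference, so its place supports nothing. Under Ang II edgeR called 0 ribosomal protein genes higher in Tg, and limma-trend called 2, while Rpl7a and Rps2 were again called lower, Rpl7a not without libraries 329 and 847. At an unadjusted p under 0.05 were 5 large-subunit and 2 small-subunit genes in either direction. No share of all genes at an unadjusted p under 0.05 is given, so nothing is read from these counts.

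Among other paralogues of ribosomal proteins 5 were tested, and none passed the test for Ang II in WT hearts. There edgeR called 0, with 1 at an unadjusted p under 0.05 (Rps4l, -0.24, adjusted p = 0.12). DESeq2 and limma-trend also called 0. In Tg hearts, where 4.04% of all genes were called lower, Rps4l fell by 0.33 under Ang II (edgeR adjusted p = 0.048). That call was lost without libraries 329 and 847. Under saline 2 of the 5, Rpl36al (0.31) and Rps27l (0.34), were higher in Tg than in WT hearts, where 20.4% of all genes were.

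Of 11 elongation and termination factors tested, which include the partners of eEF1A, 1 rose under Ang II in WT hearts, about the share of all genes called higher there (9.71%). This was Eef1g (0.20, edgeR adjusted p = 7.4e-05), a subunit of the complex that recharges eEF1A with GTP. Eef1b2, the exchange factor itself, changed by 0.17 (edgeR adjusted p = 0.062), and Eef2, which moves the ribosome along the mRNA, by 0.10 (edgeR adjusted p = 0.081). In Tg hearts, where 4.88% of all genes were called higher, 2 rose under Ang II, both factors of translation termination: Etf1 by 0.20 and Gspt1 by 0.14 (edgeR adjusted p = 0.0052 and 0.016). Under saline 2 of the 11 were higher in Tg than in WT hearts and 1 lower. The shares of all genes, 20.4% and 20.2%, were no smaller. Higher were Eef2 (0.11) and Vars (0.12), a valyl-tRNA synthetase, and lower was Eef1d (-0.10).

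Among 8 tested genes listed as enzymes or chaperones that act on the members, Zpr1, a chaperone of eEF1A, rose by 0.22 under Ang II in WT hearts (edgeR adjusted p = 4.1e-04), the 1 call of that list, where 9.71% of all genes were called higher. Chp1 rose by 0.14 under Ang II in Tg hearts (edgeR adjusted p = 0.020), the 1 call there, where 4.88% of all genes were called higher. In mice it encodes a calcineurin B-like protein, while the eEF1A chaperone of that name is a yeast protein. Grwd1, a chaperone of RPL3, was higher in Tg than in WT hearts under saline (0.39 ± 0.08, edgeR adjusted p = 1.3e-04) and under Ang II (0.39 ± 0.07, edgeR adjusted p = 4.8e-05). Under saline 3 of the 8 were called higher and 1 lower in Tg, where 20.4% and 20.2% of all genes were. Under Ang II 1 was called higher and 0 lower, where 16.4% of all genes were in each direction.

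Of 20 genes of ribosome assembly tested, 4 rose and 2 fell under Ang II in WT hearts, where 9.71% of all genes were called higher and 8.87% lower, so the count of falls was near the background. In Tg hearts 0 rose and 1 fell, near the shares of all genes called there (4.88% higher and 4.04% lower). In WT hearts Wdr12 and Bop1, which act together in the maturation of the large subunit, rose by 0.29 and 0.21. Nhp2, of the particles that guide modification of ribosomal RNA, rose there by 0.35. Polr1a, the largest subunit of RNA polymerase I, fell by 0.23 in WT and by 0.15 in Tg hearts (edgeR adjusted p = 7.7e-04 and 0.037). Under saline, where 20.4% of all genes were called higher and 20.2% lower, 11 of the 20 were higher in Tg than in WT hearts and 0 lower, among them Pes1 (0.31), Bop1 (0.30), Ncl (0.26) and Nhp2 (0.40). Under Ang II 5 were higher, where 16.4% of all genes were, or 9 without libraries 329 and 847, where 16.6% were.

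Scaling bears on these lists. With library size as the only scaling the median of all genes moved to 0.06 for Ang II in WT and to 0.14 for Tg against WT under saline. Higher calls then made up 80.6% of all calls for Ang II in WT (1987 higher, 477 lower) against 1129 higher and 1031 lower by the scaling used here. Under saline the Tg comparison went from 2376 higher and 2344 lower to 4868 and 919, under Ang II from 1905 and 1909 to 3372 and 927, and the sex comparison from 216 and 298 to 1111 and 112. The medians of the large-subunit and small-subunit genes relative to WT saline stayed positive, at 0.23 and 0.22 for Ang II in WT and 0.34 and 0.36 for Tg under saline. Those for Tg against WT under Ang II turned from -0.04 and -0.05 to 0.05 and 0.03.

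The shift of L3 was set beside 14 other pairs of a muscle form and a common form, listed with earlier results in view. Under Ang II in WT hearts the log2 ratios of the 14 changed by -0.29 (Pygm to Pygb, glycogen phosphorylases) to 0.53 (Flnc to Flna, filamins), with a median of -0.13, and 11 were lower. Rpl3l to Rpl3, at -0.83, lay below all 14, and Eef1a2 to Eef1a1, at -0.06, within their range. Under Ang II in Tg hearts the 14 ranged from -0.38 (Cox7a1 to Cox7a2, subunits of cytochrome c oxidase) to 0.39, and Rpl3l to Rpl3, at -0.28, lay within them. Between Tg and WT hearts under saline the 14 ranged from -1.12 (Ckm to Ckb, creatine kinases) to 0.79, with a median of -0.38, beside -2.16 for L3 and -0.32 for eEF1A.

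**Figure D5:**
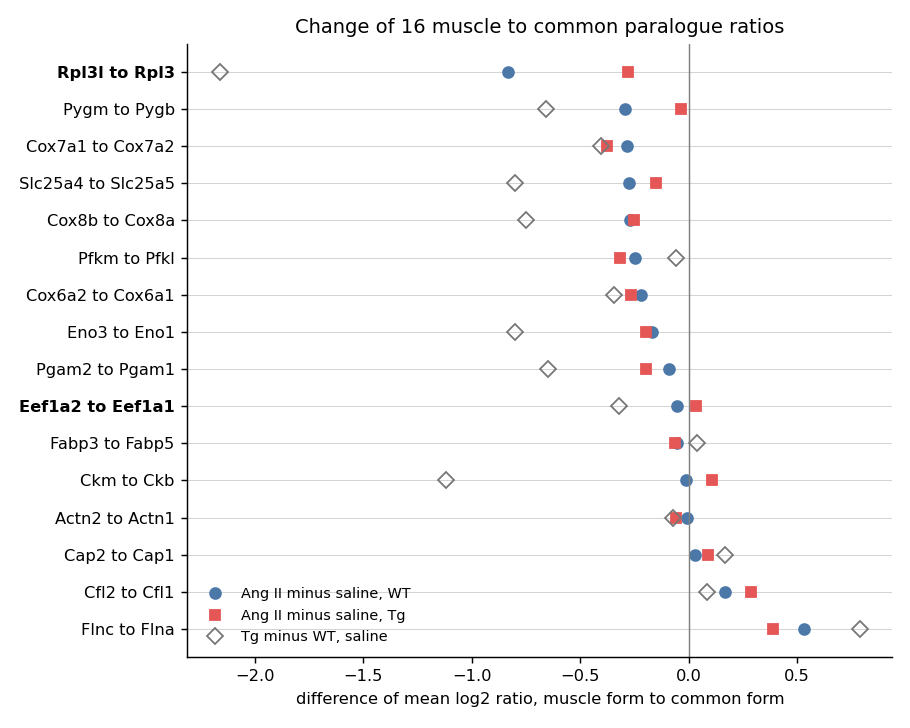
Difference of the mean log2 ratio of muscle form to common form (x axis) for 16 paralogue pairs, the 2 pairs described here in bold. Circles are Ang II minus saline in WT, squares Ang II minus saline in Tg and open diamonds Tg minus WT under saline. The circle of Rpl3l to Rpl3 stands at -0.83, left of all others, while its square at -0.28 is among them.

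Markers of cell types were measured beside these changes, since in whole tissue fewer cells of a type and less RNA per cell cannot be told apart. The tissue carried the label's identity: 10 of 10 ventricular cardiomyocyte markers were abundant, and the 3 atrial markers summed to 0.138 to 1.17 scaled FPKM per library. Rpl3l and Eef1a2 are also genes of skeletal muscle, whose 10 markers summed to 0.554 to 1.78 over all 50 libraries, with Myh4 at a median of 0 in each group. Eef1a2 is a gene of neurons too, and the 9 neuron and Schwann cell markers summed to 2.16 to 5.58. The part of skeletal muscle and nerve cells in the levels of Rpl3l and Eef1a2 was not tested.

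For Ang II in WT hearts the cardiomyocyte markers summed to 16772 to 20139.6 scaled FPKM in saline and 15997 to 19550.1 in Ang II hearts, with 2 of 10 called higher and 0 lower. The shares of all genes were 9.71% higher and 8.87% lower, and counts of 1 in 8 or 9 markers are near them. Macrophage markers summed to 99.6 to 129 and to 82.6 to 232, with 1 of 9 higher. Fibroblast markers summed to 382 to 502 and 298 to 467, with 2 of 9 higher and 1 lower. Of the endothelial markers 1 of 8 was lower and of the mural (pericyte and smooth muscle) markers 2 of 8, and none of 5 blood markers was called by edgeR (0 at an unadjusted p under 0.05, and 0 by DESeq2 or limma-trend). The part of these cells in the changes of Rpl3l and Rpl3 was not tested.

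Between genotypes the markers differed more. Under saline, where 20.4% of all genes were called higher and 20.2% lower, 6 of 10 cardiomyocyte markers were lower in Tg and 1 higher. Of the others, 9 of 9 fibroblast and 8 of 9 macrophage markers were higher, and 8 of 8 endothelial markers lower. Of the mural markers 6 of 8 were lower and 1 higher. Cardiomyocyte sums were 15346 to 18896 in Tg saline hearts, fibroblast sums 484 to 735 against 382 to 502 in WT saline, macrophage sums 152 to 425 against 99.6 to 129, and endothelial sums 89.0 to 123 against 125 to 196. The median log2 change of the cardiomyocyte markers, -0.19, stood beside -1.40 for Rpl3l and 0.73 for Rpl3. Their part in the levels of the members was not tested.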

How the data were processed

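RNA was sequenced from 50 mouse left ventricles, with poly(A) selection and a dUTP library that keeps strand, per the labels' protocols. Per the submitters' processing notes the tools were cutadapt 1.9, FastQC, HISAT2 2.0.4 and StringTie 1.3.4d. The deposited table holds a whole-number count and an FPKM value per gene and library, both made by the authors. The counting tool, its strand setting and the genome build were not given in the sources used here. Of 35599 genes found by identifier in GENCODE M21 (GRCm38), 91.6% had identical start and end, and GRCm38 positions are printed.

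The 11628 genes that reached an FPKM of 1 in 5 or more libraries were tested by edgeR's quasi-likelihood test on the counts, with median-of-ratios scaling and 1 mean for each of 8 groups of genotype, treatment and sex. P values are two-sided and Benjamini-Hochberg adjusted over these genes, and the threshold for a call was 0.05. The SE is the fold change divided by the root of the F statistic. The fit was tested on simulated data. Ratios used log2 FPKM and exact permutation within sex. Relations between genes and the comparison of the sexes used 1e+05 resamples. Each library was taken as 1 animal, and p-values measure the spread between these libraries, which may be partly technical. Alternatives were TMM scaling, library size alone, no filter, a stricter filter, runs of neighbouring library numbers as a block, DESeq2, limma-trend on log2(FPKM + 1), a pseudocount of 1 in ratios, ratios of counts, and leaving out each library. Leaving out libraries 329 and 847, adding pseudogene counts and the analyses within each sex were chosen after seeing the data. The members, gene lists and pairs were chosen with earlier results of these data known. The genes named are the 4 members, up to 4 genes with the smallest p from each list and comparison, the 5 genes most alike to Rpl3l and to Eef1a2, the 16 pairs, Larp6, Nppa, and, chosen after their values were seen, the ribosomal protein genes at the ends of a range. Some genes that this rule names are not reported here. Software was R 4.3.3, edgeR 4.0.16, limma 3.58.1, DESeq2 1.42.0, Python 3.11.15, scipy 1.17.1 and Biopython 1.88.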

Additional observations from a re-analysis of the deposited data

Results flagged for a closer look

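In 3 of 48 sets of 1 gene or ratio in 1 sex of a group, a library stood far from the others of its set by Dixon's rule, which flags about 1 in 20 sets by chance. Rpl3l in library 332, a WT saline female, was 109 scaled FPKM beside 91.2 for the next highest, a gap of 0.733 of the range (critical value 0.71). Rpl3 in library 329, labelled WT Ang II male, was 74.4 beside 49.0, a gap of 0.656 (critical value 0.568), and this is the library whose Larp6 level lies in the Tg range. Eef1a2 in library 239, a WT saline female, was 289 beside 354, a gap of 0.716 (critical value 0.71). That heart was also the 1 WT saline heart in which Eef1a1, at 335, exceeded Eef1a2. Of 8 tests of whether an Ang II change of a member differed between genotypes or sexes, 0 passed the threshold.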

How the results depend on the processing

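Alternatives other than leaving out 1 library kept 250 tested values of the members on their side of the threshold. With them 4 came to pass it and 2 ceased to. Small changes that did not pass could turn in direction and still be counted as kept. An example is Eef1a2 under Ang II in Tg hearts (-0.03 to 0.03 over the 50 omissions). Leaving out 1 library kept 1592, made 3 pass and 5 fail. Those that failed are the fall of Rpl3l under Ang II in WT hearts (-0.43 to -0.34 over the 50 omissions, edgeR adjusted p 0.020 to 0.062), also lost without a low-value filter (-0.39, edgeR adjusted p = 0.069) and without libraries 329 and 847. The rise of Rpl3 (0.32 to 0.43, edgeR adjusted p 1.2e-04 to 0.0014) and the fall of the L3 ratio (-0.89 to -0.68, exact permutation, adjusted p 2.1e-04 to 0.0056) passed in all 50. Rpl3l in WT females passed with DESeq2 (adjusted p = 0.047) and without library 329, 720 or 721. The Tg saline relation of the L3 ratio with Nppa passed when not centred on sex (r = -0.76, permutation, adjusted p = 0.014) or with FPKM as deposited (r = -0.77, adjusted p = 0.029).

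The 1038 genes called for Ang II in Tg hearts became 634 without a filter, 598 with runs of library numbers as a block and 656 to 1128 when 1 library was left out, the lowest without library 715. The 5 genes called for a difference between genotypes became 8 with library size alone, 2 without a filter, 3 with the stricter filter, 0 with the block, 40 with DESeq2, 1 with limma-trend, 3 without libraries 329 and 847, and 2 to 21 by leaving out 1 library, most without library 239. The 514 called between sexes became 1223 with library size alone, 321 with the block and 1303 with limma-trend. The 708 called for Ang II in WT females became 367 without library 779, 373 without 332, 423 without 165 and 432 without 968, and 423 without a filter, 258 with the block and 398 with limma-trend. The 826 in WT males became 309 without library 329, 454 without 157 and 525 without 846, and 1578 with library size alone, 518 without a filter, 450 with the block and 304 without libraries 329 and 847. The causes were not tested. No paired analysis was possible because every library number occurs once and replicate numbers were given in accession order.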
